A study of Mus musculus with 8 samples.

Results

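The genes described here encode the proteins of complement and of blood coagulation, with their regulators and receptors. They are 55 of the 52110 named rows of a table of liver gene expression, and each was found in the table by its symbol. Serpins, the protease inhibitors that also act on these cascades, were left out by that choice. The members were grouped by role into 3 chains of C1q, 18 complement proteins and 20 coagulation proteins that hepatocytes secrete, and 14 regulators, receptors and factors made mostly by other cells, of which 6 belong to complement and 8 to coagulation.

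All mice had the genotype WT and were fed a choline-deficient, amino acid-defined diet high in fat, abbreviated CDAHFD, which gives a fatty, inflamed and scarred liver. They also received an intravenous injection of extracellular vesicles, small membrane-bound particles, from the circulation of human volunteers. In the group RIC_hEV (4 libraries) the volunteers had undergone remote limb ischemic conditioning, in which blood flow to a limb is repeatedly stopped and released. In the group ctr_hEV (4 libraries) they had undergone a sham procedure. Strain, age, sex, vesicle dose, injection times, whether vesicles of several volunteers were pooled, and whether each library came from its own mouse are not stated in the labels, so the p-values measure the spread between these 8 libraries, which may be partly technical. There is no group without vesicles and none without the diet. The comparison asks which liver transcripts differ between livers exposed to conditioned and to sham vesicles.

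Complement is a set of plasma proteases and binding proteins that mark and lyse targets. It starts from C1q on antibody complexes, from lectins on sugars, or from spontaneous activation of C3, and all routes meet at C3 and end in a membrane pore built from C5 to C9. Coagulation is a second protease cascade, which starts from tissue factor or from contact with charged surfaces and ends when thrombin cuts fibrinogen into fibrin, while plasmin dissolves the clot. Hepatocytes make most of these plasma proteins. C1q is made by macrophages, which in the liver are chiefly Kupffer cells, and many receptors and local activators sit on endothelial cells, leukocytes or stromal cells.

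Promoter sequences are shown for the fibrinogen genes, whose 3 chains form 1 protein and kept close to fixed proportions across libraries (below), and for 2 of the 3 C1q genes, as the contrast made by macrophages. The sequences are from RefSeq on GRCm38.p6, the NCBI name of mm10, and a promoter sequence was found for 42 of the 55 members. Each is read 5′ to 3′ on the strand of its gene and lies within the 250 bases before the transcription start. Bases within an annotated gene were left out, which shortens Fga and C1qc. Capitals mark matches to 6 short motifs searched on both strands: the HNF1 motif GTTAAT, the C/EBP motif TTGCNNAA, the STAT motif TTCNNNGAA, the HNF4 motif CAAAGTCCA, the PU.1 motif GAGGAAGT and the TATA box TATAAA.
Fga, chr3:83025903-83026075, plus strand: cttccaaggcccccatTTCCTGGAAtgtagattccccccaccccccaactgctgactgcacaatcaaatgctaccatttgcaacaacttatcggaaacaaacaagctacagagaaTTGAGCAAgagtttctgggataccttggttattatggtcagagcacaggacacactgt
Fgb, chr3:83049864-83050113, minus strand: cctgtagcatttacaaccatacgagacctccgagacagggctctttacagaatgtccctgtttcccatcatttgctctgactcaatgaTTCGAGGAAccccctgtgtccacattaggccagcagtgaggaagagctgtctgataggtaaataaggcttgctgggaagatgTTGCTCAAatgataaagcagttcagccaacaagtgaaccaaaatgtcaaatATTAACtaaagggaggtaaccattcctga
Fgg, chr3:83007474-83007723, plus strand: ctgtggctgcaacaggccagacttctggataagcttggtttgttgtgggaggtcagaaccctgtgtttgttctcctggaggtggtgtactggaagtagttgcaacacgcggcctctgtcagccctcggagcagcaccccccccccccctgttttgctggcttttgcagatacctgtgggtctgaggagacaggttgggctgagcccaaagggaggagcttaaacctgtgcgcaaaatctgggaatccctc
C1qb, chr4:136886201-136886450, minus strand: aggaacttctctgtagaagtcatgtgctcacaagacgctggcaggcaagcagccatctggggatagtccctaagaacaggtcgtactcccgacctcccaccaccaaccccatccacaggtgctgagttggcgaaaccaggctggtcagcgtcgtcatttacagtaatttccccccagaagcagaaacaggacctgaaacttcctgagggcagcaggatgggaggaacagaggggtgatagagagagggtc
C1qc, chr4:136893066-136893164, minus strand: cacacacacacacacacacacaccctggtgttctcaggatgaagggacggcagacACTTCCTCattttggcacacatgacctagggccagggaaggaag

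Fga and Fgb each held a match to the HNF1, C/EBP and STAT motifs (the HNF1 match of Fga lies in the stretch not printed), whereas Fgg and C1qb held none of the 6 and C1qc held the PU.1 motif. HNF1 and C/EBP are liver transcription factors, STAT3 carries the interleukin-6 signal of the acute-phase response, and PU.1 is a factor of myeloid cells. The HNF1 motif was found in 10 of the 30 hepatocyte-secreted members with a promoter and in 6.43% of all 32851 promoters. The C/EBP motif was found in 9 of 30 and in 9.56% of all promoters, and the STAT motif in 6 of 30 and in 7.02%. The HNF4 motif was in none of the 42 members' promoters (0.384% of all) and the PU.1 motif in C1qc alone (2.44% of all). The letters TATAAA were in 3 of the 30 (12.4% of all), counted on either strand and at any position in the window. These are matches of letters in a short window, and no data here show a factor bound at them.

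Expression is given as FPKM, fragments per kilobase of transcript and scaled to the mapped fragments of the library, so that levels of different genes can be set side by side per length. The 55 members spanned from nearly 0 to 1501 FPKM (C3, the mean over 8 libraries). The 38 hepatocyte-secreted members lay between 12.6 and 1501 FPKM, with a median of 88.1, and together took 1.67% to 1.98% of the summed FPKM of a library. The C1q chains lay between 78.5 and 159 FPKM, and the 14 regulators, receptors and other factors between 0.0729 and 36.7, with a median of 3.74. Above 500 FPKM stood C3, the fibrinogen chains Fgg, Fga and Fgb, Kng1 (kininogen, the precursor of bradykinin) and Vtn (vitronectin).

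**Figure D1:**
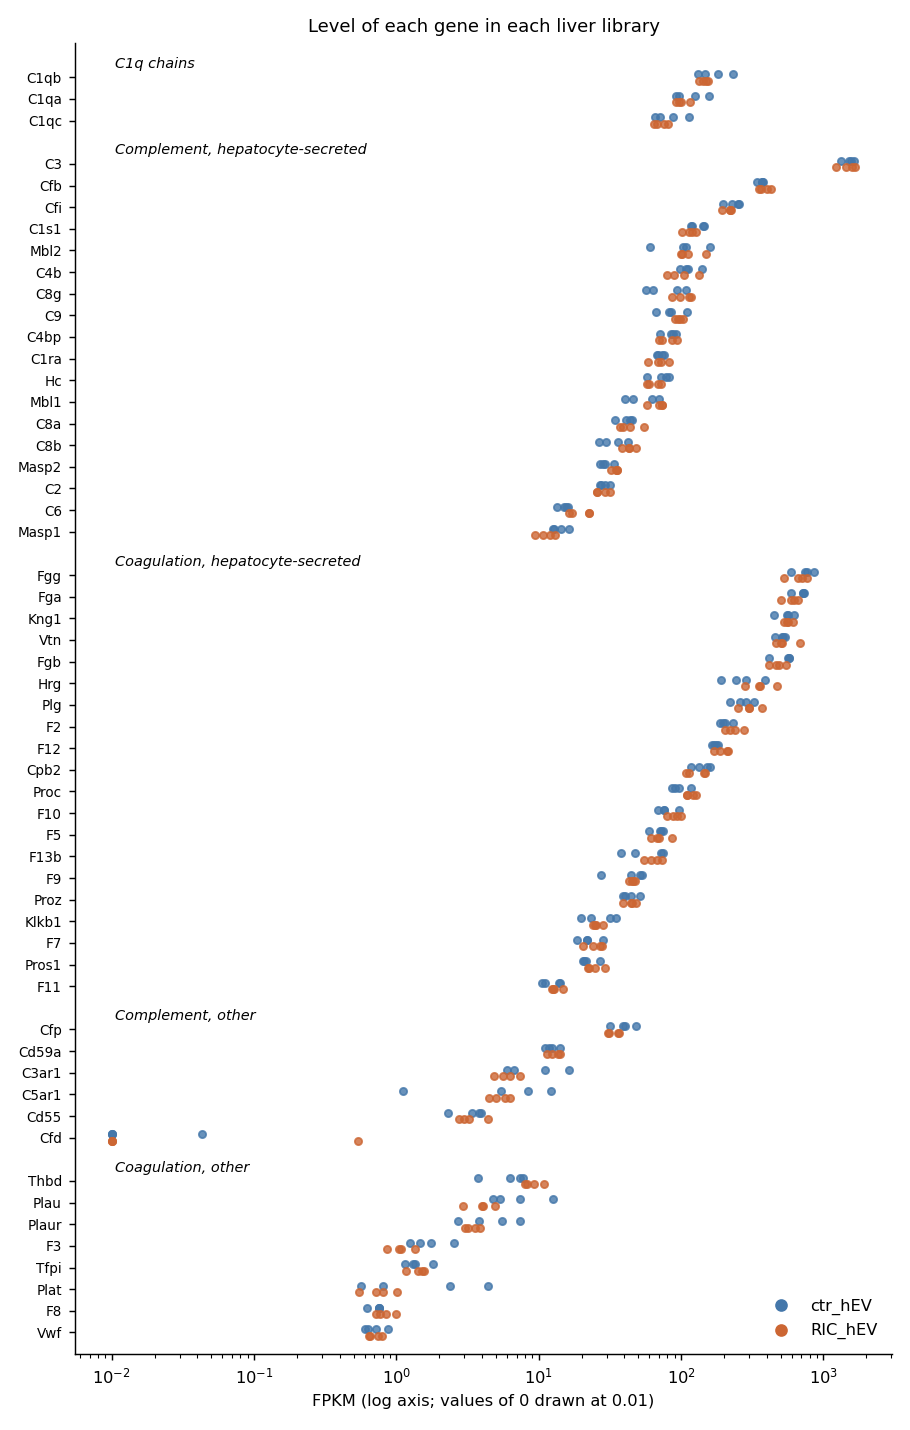
Level of each of the 55 genes in each of the 8 liver libraries, in FPKM on a log axis, grouped by role; each point is 1 library, coloured by group, and values of 0 are drawn at 0.01. Hepatocyte-secreted members lie above 9 FPKM in every library, while most regulators and receptors lie below 20 and Cfd lies at 0 in 6 of the 8.

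The change of a gene is the mean of log2(FPKM + 1) in RIC_hEV minus that in ctr_hEV, as fitted by limma, with p-values adjusted by the Benjamini-Hochberg method over the 11274 genes whose mean FPKM was at least 1. The pseudocount of 1 makes changes of genes near 1 FPKM look smaller than they are. The median change of all tested genes was −0.11, and the relative change of a gene is its change minus that median, so that 50.0% of all tested genes lie above 0. Standard errors, intervals and p-values belong to the change as fitted.

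None of the 52 members tested passed an adjusted p of 0.05, against 4 of all tested genes (0.0355%), and the lowest adjusted p of a member was 0.353 (limma). At an unadjusted p under 0.05 were 6 of 52 members, a share of 11.5%, where 14.0% of all tested genes lay. Of the 6, Thbd, C8b and C6 were higher in RIC_hEV (2.63% of all tested genes were) and Masp1, F3 and Plau lower (11.3%). The groups did not overlap for 2 members, C6 and Thbd, both higher in RIC_hEV, which is 3.85% of members. Of all tested genes, 5.87% had groups that did not overlap, 1.31% with RIC_hEV higher and 4.56% with RIC_hEV lower. Of the 52 members, 35 lay above the median gene and 17 below, with a median relative change of 0.13. As fitted, 27 of the 52 had a higher mean log2 level in RIC_hEV, where 27.0% of all tested genes did. The share of members at an unadjusted p under 0.05 was near that of all genes.

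**Figure D2:**
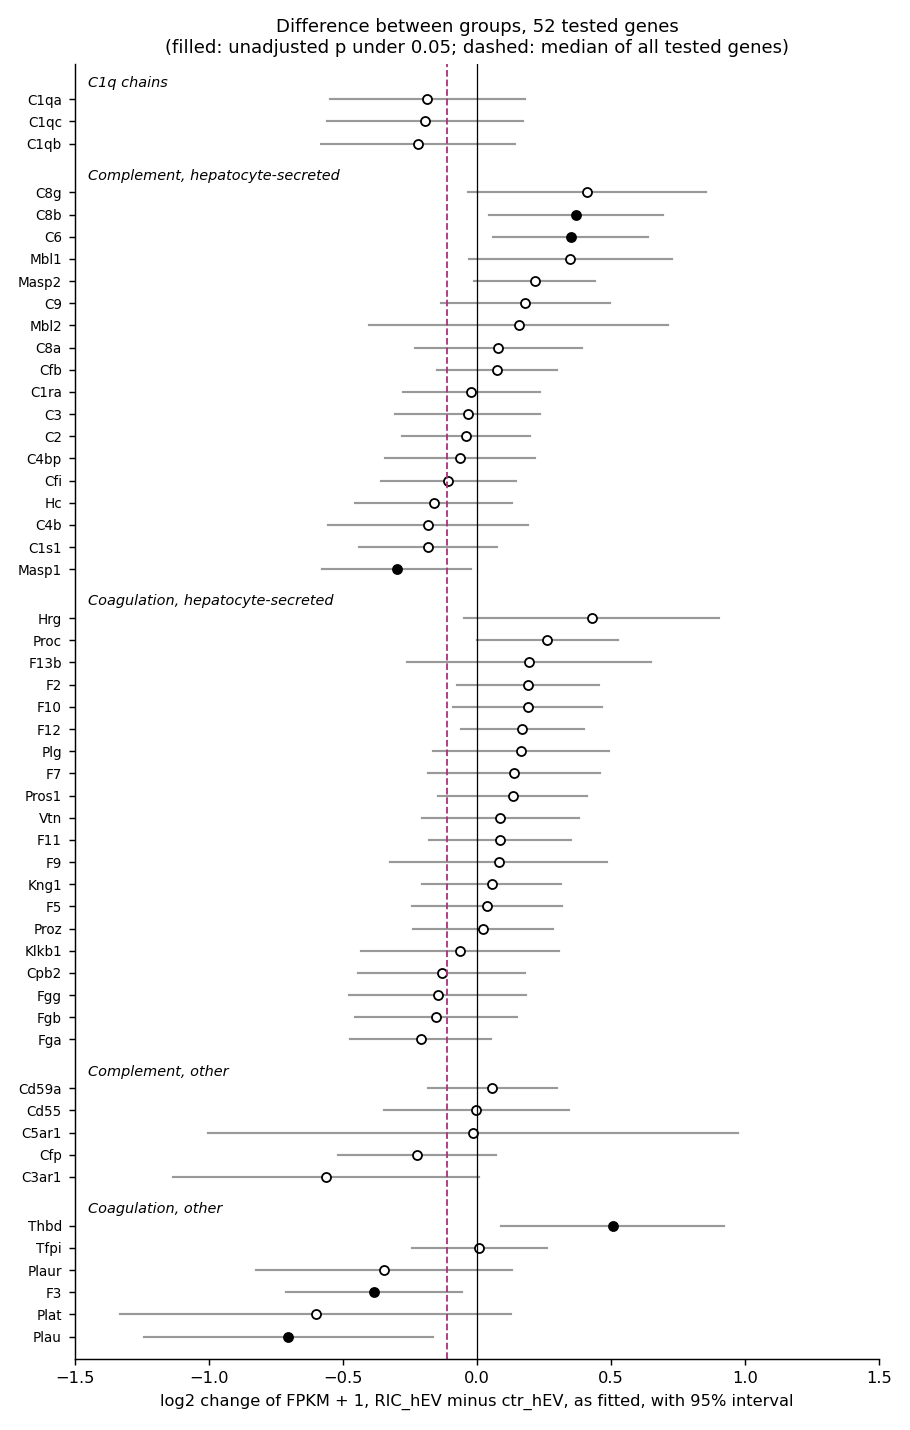
Change of log2(FPKM + 1) for the 52 tested genes, RIC_hEV minus ctr_hEV as fitted, with 95% intervals, grouped by role; filled points have an unadjusted p under 0.05 and the dashed line is the median of all tested genes, −0.11. Filled are 3 points above 0 and 3 below, and most intervals cover 0.

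Of the 8 libraries, ctr_hEV 1 and ctr_hEV 3 stood apart, at −36.1 and −23.3 on the first principal component (44.4% of the variance), where the others lay between −2.36 and 16.3. The summed FPKM of 5 cholangiocyte markers (Krt19, Krt7, Epcam, Sox9, Spp1) was 146 in ctr_hEV 1 and 107 in ctr_hEV 3 and between 20.2 and 39.0 in the other libraries. All 8 hepatocyte markers used had a higher mean log2 level in RIC_hEV (27.0% of all tested genes did), 4 at an unadjusted p under 0.05 (2.63% did). The sum of these markers was lowest in ctr_hEV 1, at 30351 against 37127 to 47158 elsewhere. In whole liver, fewer cells of a type and less RNA per cell cannot be told apart. The part of cell makeup in any result was not tested. Fits without ctr_hEV 1 and ctr_hEV 3, given below, keep only ctr_hEV 2 and ctr_hEV 4 in that group. The pair stands out in these same data, so those fits are a description and not an independent check.

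C1q, which recognises antibody complexes and dying cells, is built from the chains of 3 neighbouring genes on chromosome 4, C1qa (chr4:136895917-136898803), C1qb (chr4:136880129-136886187) and C1qc (chr4:136889804-136893065). The libraries ctr_hEV 1 to 4 held C1qa at 156, 97.2, 125 and 92.8 FPKM, and RIC_hEV 1 to 4 held it at 100.02, 92.6, 97.3 and 116. C1qb measured 232, 148, 181 and 131 FPKM in ctr_hEV (libraries 1 to 4 in order, here and below) and 133, 143, 149 and 155 in RIC_hEV. C1qc was at 113, 71.3, 87.99 and 65.8 FPKM in ctr_hEV and at 68.1, 64.9, 75.6 and 81.3 in RIC_hEV. In each chain ctr_hEV 1 and ctr_hEV 3 were the highest of all libraries, and the remaining ctr_hEV values lay within or close to the range of RIC_hEV.

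The change of C1qa was −0.18 (SE 0.16, n = 4 per group, adjusted p 0.565 by limma), that of C1qb was −0.22 (adjusted p 0.499) and that of C1qc was −0.19 (adjusted p 0.546). The 95% interval for C1qb, −0.58 to 0.14, leaves room for a difference in either direction. Relative to the median gene all 3 chains lay slightly lower, at −0.11 to −0.07, and without ctr_hEV 1 and ctr_hEV 3 all 3 lay higher, at 0.12, 0.086 and 0.10. Without ctr_hEV 1 alone, C1qa stood at 0.027, C1qb at −0.0011 and C1qc at 0.022.

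Across libraries the 3 chains kept their proportions. C1qa made up 30.3% to 33.2% of the summed FPKM of the chains, C1qb 44.0% to 47.5% and C1qc 21.6% to 23.5%. The sum over the chains, 502 FPKM in ctr_hEV 1 and 290 to 394 elsewhere, also kept a near constant ratio to Adgre1, which encodes the macrophage surface protein F4/80: 15.1 ± 0.474 in ctr_hEV and 15.3 ± 0.941 in RIC_hEV (SD, n = 4 each), with 14.3 to 16.6 as the range over all 8. The ratio to Clec4f, a marker of resident Kupffer cells, ranged wider, from 4.86 to 9.28, and was highest in ctr_hEV 1 (9.28) and ctr_hEV 3 (8.30). That to Cd68, another macrophage marker, ranged from 4.80 to 6.23 and was lowest in ctr_hEV 1 (4.80) and ctr_hEV 3 (5.15). The summed FPKM of 9 macrophage markers was 794 to 1462 in ctr_hEV and 637 to 944 in RIC_hEV. Lyz2 and Cd5l, with means of 383 and 263 FPKM, made up most of that sum. As fitted, 6 of the 9 were lower in RIC_hEV, while Clec4f, Timd4 and Marco were higher (0.01, 0.14 and 0.14).

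**Figure D3:**
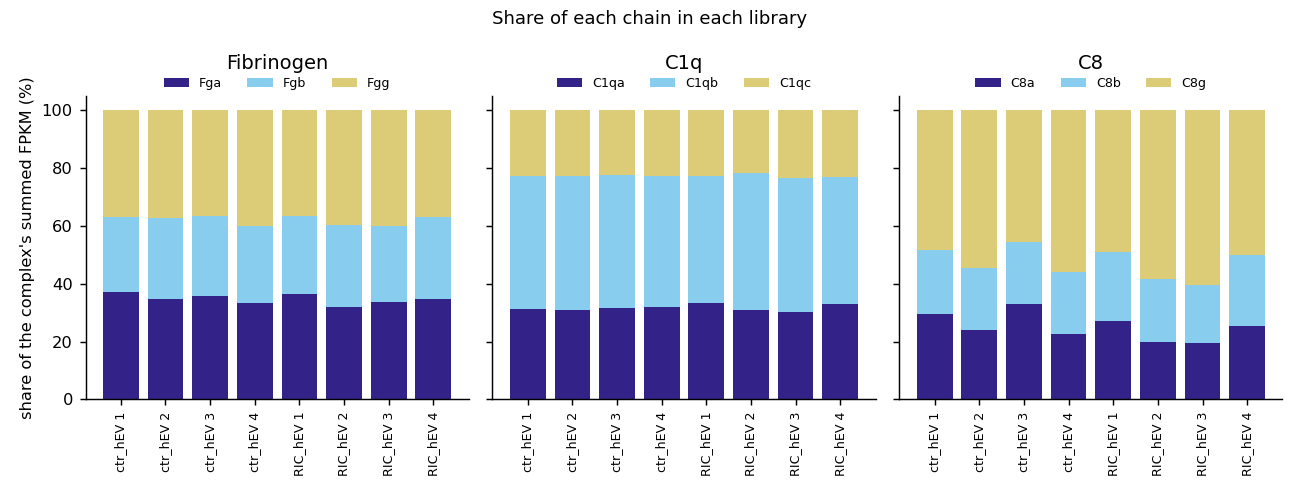
Share of each chain in the summed FPKM of its complex, in percent, for fibrinogen, C1q and C8, with 1 bar per library. C1q and fibrinogen chains keep nearly the same shares in all 8 libraries, while C8g varies from 45.6% to 60.6% of the C8 sum.

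Hepatocyte-secreted complement genes lay mostly above the median gene, 14 of 18, with a median relative change of 0.14. As fitted, 9 had a higher and 9 a lower mean log2 level in RIC_hEV. That median was 0.01 without ctr_hEV 1 and ctr_hEV 3 and −0.01 after quantile normalization. At an unadjusted p under 0.05 were 3 of 18, a share of 16.7% against 14.0% of all tested genes.

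The terminal proteins form the membrane pore, and 6 of their genes are members. Of these, 5 (C6, C8a, C8b, C8g, C9, but not Hc, which encodes C5) had higher means in RIC_hEV, against 27.0% of all tested genes. C7, also part of the pore but not a member, lay below the filter. It stood at 0.741 ± 0.539 FPKM in ctr_hEV and 0.603 ± 0.276 in RIC_hEV. C6, which binds C5b to start the pore (chr15:4727175-4814967), was at 13.5, 16.1, 15.1 and 15.5 FPKM in ctr_hEV and at 22.6, 17.1, 16.3 and 22.6 in RIC_hEV. All RIC_hEV values stood above all ctr_hEV values, though RIC_hEV 3 and ctr_hEV 2 differed by little and overlapped once each library was rescaled to a common total. The means were 15.1 ± 1.12 and 19.6 ± 3.44 FPKM (SD, n = 4 each), a change of 0.35 (SE 0.13, 95% interval 0.06 to 0.64, unadjusted p 0.0219, adjusted p 0.354 by limma).

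C8 is assembled from an alpha, a beta and a gamma chain. C8b, the beta chain (chr4:104766317-104804548), was at 26.3, 36.2, 29.8 and 42.1 FPKM in ctr_hEV and at 48.3, 42.8, 38.5 and 43.1 in RIC_hEV, so that the groups overlapped only through ctr_hEV 4 and RIC_hEV 3. Its change was 0.37 (SE 0.15, unadjusted p 0.0291, adjusted p 0.354 by limma). C8g, the gamma chain (chr2:25498651-25501719), was at 56.7, 93.0, 63.1 and 108 FPKM in ctr_hEV and at 98.5, 114, 117 and 86.9 in RIC_hEV, with ctr_hEV 1 and ctr_hEV 3 the lowest of all. The fitted change of C8g, 0.41, had an interval of −0.03 to 0.85. Relative to the median gene C8b lay at 0.48 and C8g at 0.52, and without ctr_hEV 1 and ctr_hEV 3 at 0.17 and 0.069.
The alpha chain C8a differed little, at 41.1 ± 4.81 FPKM in ctr_hEV and 43.8 ± 7.91 in RIC_hEV. Unlike C1q and fibrinogen, the chains of C8 did not keep fixed shares, and C8a ranged from 19.4% to 32.9% of their sum. For the 6 terminal members the median relative change was 0.37, and 0.12 without ctr_hEV 1 and ctr_hEV 3.

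In the lectin pathway, Masp1 encodes a protease that is bound to mannose-binding lectin and cuts MASP-2 (chr16:23449417-23520815). It was at 16.4, 14.4, 12.8 and 12.6 FPKM in ctr_hEV and at 12.98, 10.6, 9.36 and 11.97 in RIC_hEV, where only RIC_hEV 1 reached into the range of ctr_hEV. Its change was −0.30 (SE 0.13, 95% interval −0.58 to −0.02, unadjusted p 0.0374, adjusted p 0.354 by limma). The other 3 members of the pathway had higher means in RIC_hEV, none at an unadjusted p under 0.05. The lectin Mbl1 stood at 54.7 ± 13.7 and 68.6 ± 7.30 FPKM (unadjusted p 0.0669, adjusted p 0.37 by limma), Mbl2 at 108 ± 40.3 and 116 ± 23.7, and the protease Masp2 at 29.6 ± 3.05 and 34.4 ± 1.51, in ctr_hEV and RIC_hEV respectively. Of the 31-base stretches of Masp2, 53.3% also occur elsewhere, in particular in the overlapping Tardbp on the opposite strand, so its reads may not all be its own. The median relative change of the 4 lectin-pathway members was 0.30, and −0.05 without ctr_hEV 1 and ctr_hEV 3.

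C3, on which all routes converge, was the most abundant member (chr17:57203970-57228136). Its level was 1522, 1333, 1643 and 1569 FPKM in ctr_hEV and 1598, 1438, 1233 and 1674 in RIC_hEV. The groups overlapped almost completely, with means of 1517 ± 132 and 1486 ± 195 (SD, n = 4 each). The 95% interval of the change, −0.31 to 0.24, bounds a difference at this scale. Relative to the median gene C3 lay at 0.08, and at −0.26 after quantile normalization and −0.011 with no filter.

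Around C3, Cfb (factor B of the alternative pathway) stood at 364 ± 16.8 FPKM in ctr_hEV and 384 ± 35.1 in RIC_hEV. It had the lowest coefficient of variation of all members over the 8 libraries, 7.40%. Cfi, the protease that inactivates C3b, stood at 233 ± 27.0 and 215 ± 14.9 FPKM, and C4bp, which binds C4b and assists Cfi, at 84.3 ± 9.31 and 80.8 ± 10.8. The classical-pathway genes C1ra, C1s1, C2 and C4b all had slightly lower means in RIC_hEV, by 0.02 to 0.18 on the log2 scale, while relative to the median gene 2 lay higher and 2 lower.

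Several of these genes have near copies or overlapping gene models, which the counting could have split. The share of 31-base stretches also found in other genes was 75.5% for Cfb and 44.4% for C2, both overlapped by the fusion model Gm20547, which was listed at 0 in every library. It was 59.6% for C1ra, 48.3% for C4b and 47.6% for C1s1. The copy C1rb was listed at 0 in all libraries but ctr_hEV 4 (12.2 FPKM) and RIC_hEV 3 (8.45 FPKM). In these libraries C1ra stood at 76.4 and 59.0 FPKM, its second highest and its lowest value. C4a, the copy of C4b, stood at 2.12 to 3.44 FPKM.

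Hepatocyte-secreted coagulation genes lay mostly above the median gene, 16 of 20, with a median relative change of 0.20. As fitted, 15 had a higher and 5 a lower mean log2 level in RIC_hEV, and none was at an unadjusted p under 0.05 or had groups that did not overlap. Without ctr_hEV 1 and ctr_hEV 3 the median relative change was −0.02.

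Fibrinogen is the substrate of thrombin, and the transcripts of its chains Fgg and Fga had the highest mean FPKM of the hepatocyte-secreted coagulation genes. Fga, the alpha chain (chr3:83026076-83033627), was at 591, 718, 727 and 716 FPKM in ctr_hEV and at 663, 619.6, 596 and 502 in RIC_hEV. Fgb, the beta chain (chr3:83040141-83049863), was at 415, 573, 566 and 577 FPKM in ctr_hEV and at 490.4, 542, 465 and 413 in RIC_hEV. Fgg, the gamma chain (chr3:83007724-83015049), was at 588, 772, 746 and 861 FPKM in ctr_hEV and at 667, 769, 710.4 and 532 in RIC_hEV. Each chain was low in ctr_hEV 1 and in RIC_hEV 4 and the groups overlapped.

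Their means were 688 ± 65.0 and 595 ± 67.9 FPKM for Fga, 533 ± 78.9 and 477 ± 53.8 for Fgb, and 741 ± 114 and 670 ± 101 for Fgg (ctr_hEV and RIC_hEV, SD, n = 4 each). The fitted changes were −0.21, −0.15 and −0.15, with the narrowest interval, −0.47 to 0.05, for Fga. Relative to the median gene, Fgb and Fgg lay at −0.04, and each lay above 0 when RIC_hEV 4 was left out (0.045 and 0.088). The median of the 3 chains was −0.04, against −0.20 without ctr_hEV 1, −0.25 without ctr_hEV 1 and ctr_hEV 3, and −0.33 after quantile normalization. Over all libraries Fga made up 32.1% to 37.1% of the chain sum, Fgb 26.0% to 28.5% and Fgg 36.6% to 40.1%.

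The 7 proteins with the vitamin K-dependent Gla domain are prothrombin (F2), F7, F9, F10, protein C (Proc), protein S (Pros1) and protein Z (Proz). All 7 had higher means in RIC_hEV (6 of 7 once each library was rescaled to a common total), by 0.02 to 0.26 on the log2 scale, against 27.0% of all tested genes above 0, and their median relative change was 0.25. As fitted, 5 of the 7 remained above 0 without ctr_hEV 1 and ctr_hEV 3, and the median relative change was then 0.13. The highest change was that of Proc, the anticoagulant protease, at 98.0 ± 14.2 FPKM in ctr_hEV and 117 ± 8.16 in RIC_hEV (0.26, SE 0.12, unadjusted p 0.0502, adjusted p 0.357 by limma). F2 stood at 205 ± 19.4 and 235 ± 30.5 FPKM and F10 at 79.4 ± 11.9 and 90.3 ± 8.65, each with overlapping groups. Among genes that modify Gla proteins, Vkorc1, which recycles vitamin K, stood at 61.0 ± 19.5 and 77.2 ± 13.8 FPKM and the carboxylase Ggcx at 9.45 ± 1.06 and 8.51 ± 1.19, neither at an unadjusted p under 0.05.

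Contact-system genes encode the proteins that start clotting on charged surfaces. F12 stood at 173 ± 7.74 FPKM in ctr_hEV and 196 ± 19.6 in RIC_hEV, F11 at 12.4 ± 1.84 and 13.1 ± 1.07, prekallikrein (Klkb1) at 27.4 ± 7.11 and 25.6 ± 1.76, and Kng1 at 547 ± 70.2 and 565 ± 34.6. In all 4 the groups overlapped, and none was at an unadjusted p under 0.05. Their median relative change was 0.18 with 4 of 4 above the median gene, and −0.05 with 1 of 4 above it without ctr_hEV 1 and ctr_hEV 3. For Klkb1 and Kng1, 43.2% and 26.5% of 31-base stretches also occur elsewhere, which makes their levels less certain.

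Among cofactors and fibrinolytic proteins, Hrg, a plasma glycoprotein that binds heparin and plasminogen, had the largest relative change of the hepatocyte-secreted coagulation genes, 0.54 (chr16:22951072-22961656). It was at 191, 286, 243 and 386 FPKM in ctr_hEV and at 472, 355, 282 and 358 in RIC_hEV. The groups overlapped through ctr_hEV 4 and RIC_hEV 3, and the change as fitted, 0.43, had a 95% interval of −0.05 to 0.90 (adjusted p 0.379 by limma). The relative change of Hrg was 0.15 without ctr_hEV 1 and ctr_hEV 3. Plg, which encodes plasminogen, stood at 273 ± 44.2 FPKM in ctr_hEV and 306 ± 47.6 in RIC_hEV. Cpb2, whose product protects fibrin from plasmin, stood at 141 ± 18.9 and 129 ± 19.8, and F5, F13b and Vtn had higher means in RIC_hEV by 0.04 to 0.19 on the log2 scale. For the 6 cofactors and fibrinolytic proteins the median relative change was 0.24, and 0.0039 without that pair of ctr_hEV libraries.

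The regulators, receptors and factors of other cells were mostly low, and their spread differed. Among those tested, the coefficient of variation over all libraries ran from 9.35% for Cd59a to 95.7% for Plat. Of the 14, 11 passed the expression filter, 3 had a higher and 8 a lower mean log2 level in RIC_hEV, and their median relative change was −0.11. At an unadjusted p under 0.05 were 3 of the 11, all of coagulation, a share of 27.3% against 14.0% of all tested genes.

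Of the complement genes here, Cfp encodes properdin, which stabilises the alternative-pathway convertase and is made by leukocytes (chrX:20925454-20931555). It was at 48.0, 39.4, 40.3 and 31.5 FPKM in ctr_hEV and at 30.8, 31.2, 35.9 and 36.8 in RIC_hEV, with ctr_hEV 1 highest and a change of −0.22 (95% interval −0.52 to 0.07). Its relative change was −0.11, and −0.04 without ctr_hEV 1 and ctr_hEV 3. C3ar1, the receptor for the fragment C3a (chr6:122847138-122856161), was at 16.3, 6.72, 11.1 and 5.99 FPKM in ctr_hEV and at 4.88, 5.64, 6.33 and 7.38 in RIC_hEV. Here ctr_hEV 1 and ctr_hEV 3 stood far above the other 6 libraries, which overlapped. The change of C3ar1 was −0.56 (SE 0.26, 95% interval −1.13 to 0.01, adjusted p 0.359 by limma), and its relative change was −0.45, or −0.04 without that pair.

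C5ar1, the receptor for C5a, was likewise highest in ctr_hEV 1 (12.1 FPKM) and ctr_hEV 3 (8.46) but lowest in ctr_hEV 4 (1.12), with 4.48 to 6.26 in RIC_hEV. On the membranes of host cells, Cd59a blocks the pore (chr2:104095801-104115354) and Cd55 dissociates convertases. Cd59a was at 11.8, 12.5, 11.1 and 14.1 FPKM in ctr_hEV and at 11.5, 14.0, 13.7 and 12.4 in RIC_hEV. Cd55 stood at 3.36 ± 0.732 and 3.34 ± 0.724 FPKM. Both regulators had overlapping groups, with a 95% interval of −0.18 to 0.30 for Cd59a.

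Thrombomodulin, encoded by Thbd (chr2:148404466-148408188), is the endothelial receptor that turns thrombin from a clotting into an anticoagulant enzyme. Its level was 3.73, 7.39, 7.75 and 6.26 FPKM in ctr_hEV and 8.29, 8.03, 9.24 and 10.9 in RIC_hEV. All 4 RIC_hEV libraries stood above all ctr_hEV libraries, though the groups overlapped once each library was rescaled to a common total, and ctr_hEV 1 was the lowest. The means were 6.29 ± 1.82 and 9.13 ± 1.32 FPKM, a change of 0.51 (SE 0.19, 95% interval 0.09 to 0.92, unadjusted p 0.0215, adjusted p 0.354 by limma), the largest upward change of any member tested. Without ctr_hEV 1 and ctr_hEV 3 Thbd remained at an unadjusted p under 0.05, with a relative change of 0.39 against 0.62 over all libraries. In that fit 5.21% of all tested genes lay under this threshold, among them also C1s1 and Klkb1, both lower in RIC_hEV. C1s1 stood at 144 and 145 FPKM in ctr_hEV 2 and 4, against 102 to 127 in RIC_hEV. Klkb1 stood at 34.9 and 31.8 FPKM, against 24.1 to 28.1. The summed FPKM of 9 endothelial markers was 108 to 128 in ctr_hEV and 103 to 143 in RIC_hEV.

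Urokinase, encoded by Plau (chr14:20836660-20843385), activates plasminogen at cell surfaces. It was at 12.6, 5.34, 7.33 and 4.80 FPKM in ctr_hEV and at 2.92, 4.96, 4.05 and 4.01 in RIC_hEV. Only RIC_hEV 2 overlapped with ctr_hEV, and ctr_hEV 1 and ctr_hEV 3 were highest. Mean levels were 7.51 ± 3.55 and 3.98 ± 0.834 FPKM, and the change of −0.70 (SE 0.24, 95% interval −1.24 to −0.16, unadjusted p 0.0153, adjusted p 0.353 by limma) was the largest downward change of any member tested. Relative to the median gene it lay at −0.59, and at −0.27 without ctr_hEV 1 and ctr_hEV 3.

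Tissue factor, encoded by F3 (chr3:121723537-121735048), starts coagulation when blood meets cells outside the vessel. It was at 2.55, 1.24, 1.76 and 1.47 FPKM in ctr_hEV and at 1.07, 1.05, 0.862 and 1.36 in RIC_hEV, a range estimated to rest on 53.4 to 179 fragments per library. The highest RIC_hEV value passed only the lowest ctr_hEV value, and the change was −0.38 (SE 0.15, unadjusted p 0.0254, adjusted p 0.354 by limma). Relative to the median gene F3 lay at −0.27, and at −0.15 without ctr_hEV 1 and ctr_hEV 3. Plat, which encodes tissue plasminogen activator, had the widest spread of the tested members, with 4.37 FPKM in ctr_hEV 1, 2.37 in ctr_hEV 3 and 0.546 to 1.005 elsewhere. Plaur, the urokinase receptor, was highest in the same pair, at 7.39 and 5.52 FPKM against 2.72 to 3.87 elsewhere. Tfpi, the inhibitor of tissue factor, stood level at 1.41 ± 0.282 FPKM in ctr_hEV and 1.41 ± 0.179 in RIC_hEV.

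**Figure D4:**
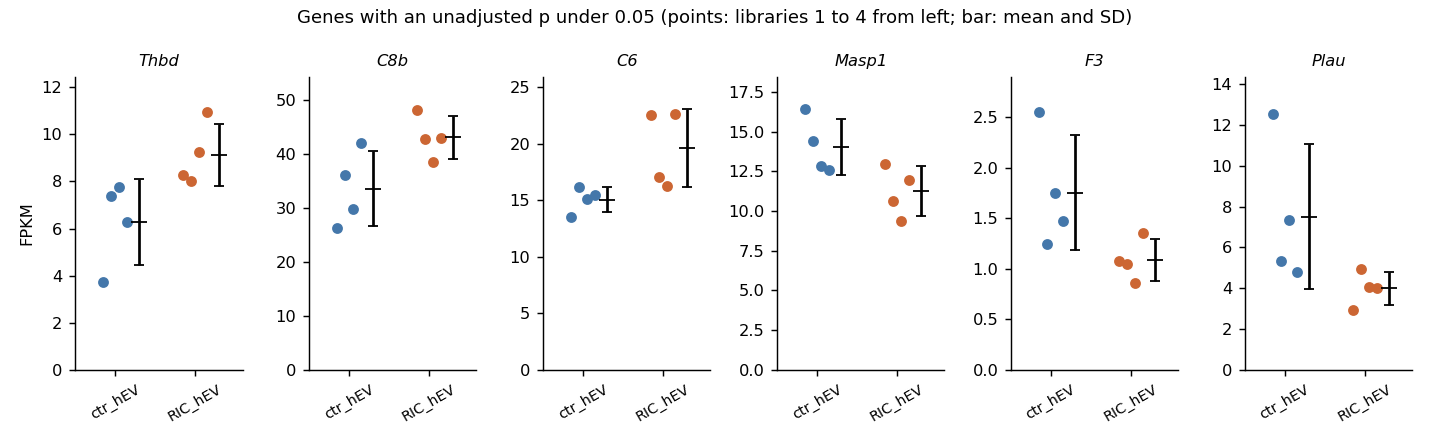
FPKM in each library of the 6 genes with an unadjusted p under 0.05; points are libraries 1 to 4 from left to right in each group, and the bar gives the mean and SD (n = 4 per group). The groups of C6 and Thbd do not overlap, and in Plau and F3 the ctr_hEV 1 point lies highest.

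Cfd, F8 and Vwf lay below the filter of 1 FPKM and were compared by a two-sided exact permutation test over the 70 assignments of libraries to groups, whose smallest possible p is 0.0286. Cfd encodes factor D of the alternative pathway, which is made chiefly by fat cells. It was listed at 0 in 6 libraries, at 0.0428 FPKM in ctr_hEV 4 and at 0.540 in RIC_hEV 2 (exact p 1.0). Of 5 fat cell markers, Adipoq and Lep were listed at 0 in every library. The sum of all 5 was 0.0312 to 0.257 FPKM in ctr_hEV and 0 to 0.0151 in RIC_hEV. F8, which endothelial cells make, stood at 0.724 ± 0.0689 FPKM in ctr_hEV and 0.835 ± 0.120 in RIC_hEV (exact permutation p 0.2, n = 4 each). Vwf, the carrier of factor VIII, stood at 0.710 ± 0.125 and 0.708 ± 0.0750 (exact permutation p 1.0, n = 4 each).

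Set side by side, the hepatocyte-secreted members had a median relative change of 0.19 (30 of 38 above the median gene), the C1q chains −0.08 (0 of 3) and the regulators, receptors and other factors −0.11 (5 of 11). No test of the difference between these sets was made, since their members were chosen with results known. By library, the hepatocyte-secreted members deviated from their own 8-library mean by −0.43, −0.01, −0.13 and 0.21 in ctr_hEV 1 to 4 and by 0.23, 0.13, −0.01 and 0.01 in RIC_hEV 1 to 4, on the log2 scale and relative to the median gene. C1q deviated by 0.37, −0.14, 0.11 and −0.16 in ctr_hEV and by −0.06, −0.13, −0.03 and 0.05 in RIC_hEV. Regulators and receptors deviated by 0.27, −0.05, 0.19 and −0.22 in ctr_hEV and by −0.10, −0.09, −0.05 and 0.05 in RIC_hEV. In ctr_hEV 1 and ctr_hEV 3 the hepatocyte-secreted members were thus low and both other sets high, and in ctr_hEV 4 the reverse held.

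Hepatocyte markers were lowest in the same pair of libraries, at −0.58 in ctr_hEV 1 and −0.35 in ctr_hEV 3. Macrophage markers were highest in ctr_hEV 1 (0.28) and RIC_hEV 4 (0.21), with 0.08 in ctr_hEV 3. Neutrophil markers were highest in ctr_hEV 3 (1.37), with 0.48 in ctr_hEV 2 and 0.38 in ctr_hEV 1. Their sum was 16.2 to 78.4 FPKM in ctr_hEV and 9.49 to 18.7 in RIC_hEV. Of the 8 neutrophil markers 5 were tested. All 5 were lower in RIC_hEV at an unadjusted p under 0.05, where 11.3% of all tested genes were. The median relative change of hepatocyte-secreted members minus that of C1q was 0.27 over all libraries and −0.13 without ctr_hEV 1 and ctr_hEV 3.

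**Figure D5:**
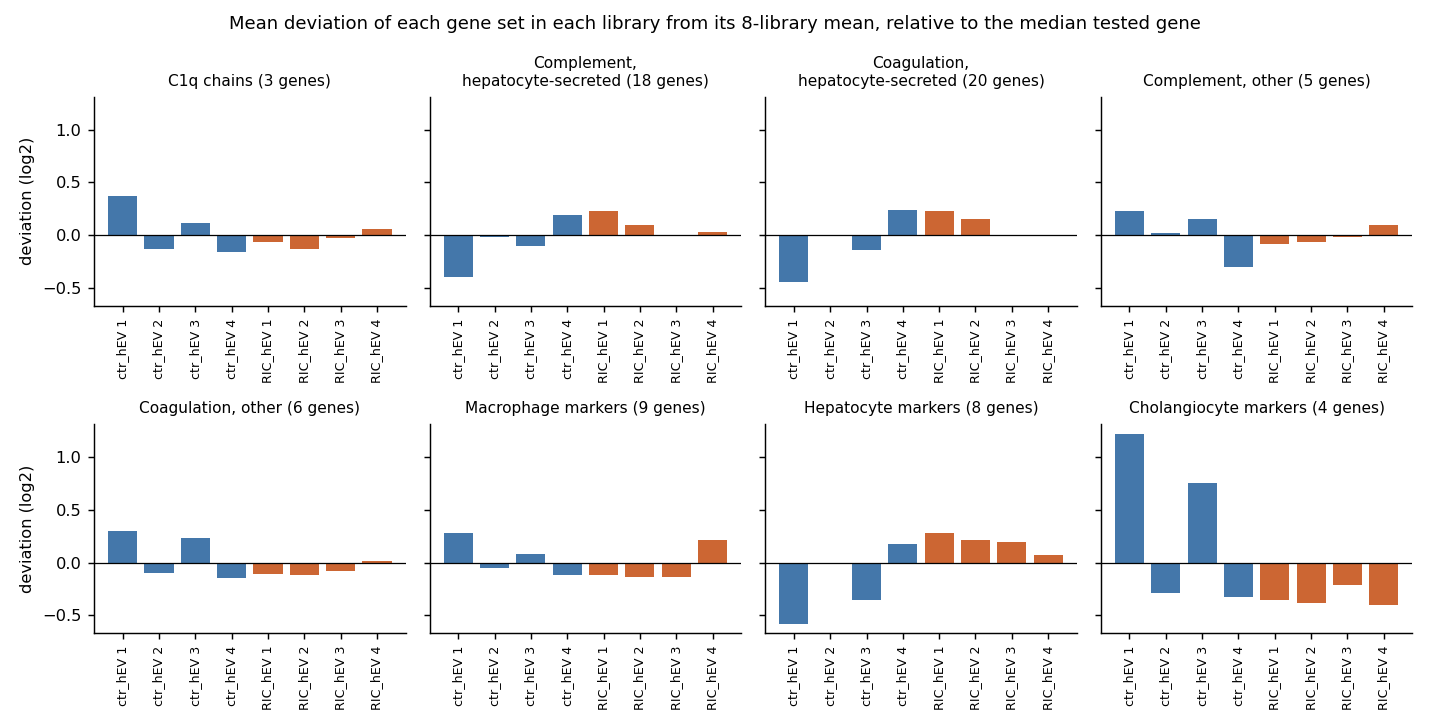
Mean deviation of each gene set in each library from its 8-library mean, on the log2 scale and relative to the median tested gene; bars are libraries coloured by group, with panels for the 5 role sets and for macrophage, hepatocyte and cholangiocyte markers. In ctr_hEV 1 the hepatocyte-secreted sets stand at −0.40 and −0.45 and C1q at 0.37, and cholangiocyte markers reach 1.22.

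Beyond the members, 50 further genes of complement and coagulation were listed, of which 35 were tested and none passed an adjusted p of 0.05. At an unadjusted p under 0.05 were 3, all lower in RIC_hEV, a share of 8.57% against 14.0% of all tested genes. F2rl1, a protease-activated receptor cut by trypsin and by factor VIIa bound to tissue factor, stood at 1.72 ± 0.930 FPKM in ctr_hEV and 0.616 ± 0.279 in RIC_hEV. Thbs1, the platelet and matrix protein thrombospondin, stood at 5.03 ± 2.36 and 2.73 ± 0.534. C4a stood at 3.04 ± 0.301 and 2.41 ± 0.234, and its groups did not overlap. The same held upwards for Cpn1, a subunit of the carboxypeptidase that inactivates C3a and C5a, at 37.2 ± 2.62 and 42.2 ± 2.92 FPKM. These 2 of the 35 are a share of 5.71%, near the 5.87% of all tested genes whose groups did not overlap. The median relative change of the 35 genes was −0.00, which places them level with the median gene.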

How the data were processed

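Liver total RNA was sequenced in 8 libraries after Trizol extraction and preparation with a VAHTS universal kit for Illumina, per the labels' protocols. Named in the submitters' processing notes are the build mm10 and the tools HISAT2 2.2.1, HTSeq 0.13.5, DESeq2 1.18.1, R 3.4.1, Trimmomatic 0.38 and FastQC 0.11.9. The deposited values are FPKM, 1 column per library. Not given in the sources used here are the program behind them, its annotation and gene lengths, and any strand setting, so reads of a gene and of one overlapping it in antisense may be mixed.

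Of 55335 rows, 3225 without a gene name (0.176% to 0.207% of a library's FPKM) were left out. Where a symbol stood on several rows (78 symbols), the row with the higher mean was used. Total FPKM was 389616 to 430326. From FPKM and exon lengths (GENCODE M21) the depth was estimated at 19300000 to 28800000 fragments. Only 14.5% to 15.8% of low values were whole fragments within 0.02, so no count model was used.

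Values were compared as log2(FPKM + 1) with limma 3.58.1 in R 4.3.3 (mean-variance trend, Benjamini-Hochberg adjustment, mean FPKM of at least 1), after the method was tested on simulated data. Alternatives changed the pseudocount, filter, scaling, trend and libraries. Members, lists and tests were chosen with earlier results of these data known. Values in every library were given for members with an unadjusted p under 0.05 or groups that did not overlap, for the most abundant and most changed of each role, and for C1q, fibrinogen and C3. Other members were named to describe their role, some after their values were seen. Promoters are from RefSeq (GRCm38.p6). One hepatocyte marker of the list was not used here.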

Additional observations from a re-analysis of the deposited data

Results flagged for a closer look

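Among 110 sets of 4 libraries (each of the 55 genes in each group), 8 held a library whose gap to the nearest other exceeded Dixon's 95% critical value as a share of the range. For independent, normally distributed values, chance gives about 1 in 20. Cfd, at 0 in all but 1 library of each group, and Fga and Fgb, which varied together, are not such values. In ctr_hEV 1, Fga was low at 590.5 FPKM (716 to 727 in the other 3), as was Fgb at 415 FPKM (566 to 577) and F8 at 0.621 FPKM (0.758 to 0.760). In ctr_hEV 3, Pros1 was high at 27.0 FPKM, against at most 21.5. In RIC_hEV, Cfi was low at 193 FPKM in library 4 (221 to 225 in the others) and Masp2 at 32.2 FPKM in library 3 (34.9 to 35.4). Cfd stood at 0.0428 FPKM in ctr_hEV 4 and at 0.540 FPKM in RIC_hEV 2, with the other libraries of each group listed at 0.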

How the results depend on the processing

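No member passed an adjusted p of 0.05 under any of the 17 alternatives. Over all tested genes, 4 passed, 2 with no filter, 1 with a filter of 5 FPKM, and 1 to 175 when 1 library was left out, the 175 without ctr_hEV 4. Members at an unadjusted p under 0.05 numbered 3 without ctr_hEV 1 and ctr_hEV 3 and 4 to 18 when 1 library was left out. The 18, without ctr_hEV 4, came where 29.1% of all tested genes lay under that threshold. The count of 3 is set against the share of all tested genes where Thbd is described above. The count of 4 is not set against a share here. Neither count is read as a result about the members. Members whose groups did not overlap numbered 0 on the TPM scale. Without ctr_hEV 1 and ctr_hEV 3 they numbered 12, where 14.0% of all tested genes did not overlap. They numbered 3 to 8 when 1 library was left out. The count was 6 without ctr_hEV 1, 4 without ctr_hEV 3, 8 without ctr_hEV 4 and 5 without RIC_hEV 3. In those fits, in that order, 7.94%, 7.01%, 25.2% and 9.99% of all tested genes did not overlap. The counts of 0 and 3 are not set against a share here. None of these counts is read as a result about the members.

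Without ctr_hEV 1 and ctr_hEV 3, the median relative change was 0.10 for C1q, −0.024 for hepatocyte-secreted coagulation genes, 0.086 for coagulation regulators and receptors, and −0.13 for hepatocyte-secreted members minus C1q. The median for coagulation regulators and receptors was −0.25, and −0.021 with a filter of 5 FPKM (2 genes), −0.056 on the TPM scale and −0.33 to −0.084 when 1 library was left out. Complement regulators and receptors stood between −0.18 and 0.12 when 1 library was left out, and hepatocyte-secreted members minus C1q between 0.030 and 0.41. C1qa, C1qb and C1qc turned to 0.12, 0.086 and 0.10 and Cd59a to −0.014 without ctr_hEV 1 and ctr_hEV 3, and C3 to −0.011 with no filter and −0.26 after quantile normalization. When 1 library was left out, C1qa ranged from −0.15 to 0.027, C1qc from −0.15 to 0.022, Fgb from −0.20 to 0.045 and Fgg from −0.19 to 0.088. The cause of these shifts was not tested. Same-numbered libraries of the groups did not deviate together (correlations 0.05, 0.12, −0.01 and −0.23). Pairs with unlike numbers ranged from −0.15 to 0.19. Whether the numbers pair the libraries is not stated in the labels and cannot be settled by these correlations. A replicate block gave 0 members past the adjusted threshold.

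Depth limits F3, C5ar1, Plat and Cfd, whose lowest values rest on an estimated 53.4, 72.6, 68.4 and 0 fragments.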
